A study of Mus musculus with 7 samples.

Results

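The genes described here are 7 members of the fibroblast growth factor (FGF) system of mouse liver, chosen by name: the ligands Fgf1 and Fgf21, the coreceptor Klb (beta-klotho) and the receptors Fgfr1, Fgfr2, Fgfr3 and Fgfr4. They were read from the deposited table by their Ensembl gene IDs: ENSMUSG00000036585 for Fgf1, ENSMUSG00000030827 for Fgf21, ENSMUSG00000029195 for Klb, ENSMUSG00000031565 for Fgfr1, ENSMUSG00000030849 for Fgfr2, ENSMUSG00000054252 for Fgfr3 and ENSMUSG00000005320 for Fgfr4. All 7 were among its 33426 IDs. Liver RNA came from 7 wild-type male C57BL/6J mice, an inbred strain that becomes obese on fatty food. Both groups became obese on a 60 kcal% fat diet that began at 4 weeks of age (diet-induced obesity, DIO); it ran to 16 weeks and then continued for another 40 days. The DIO group (n = 3) received the diet alone, and the BMJ + DIO group (n = 4) was also gavaged once a day, over those 40 days, with lyophilized juice of bitter melon (BMJ), the fruit of Momordica charantia, dosed at 200 mg/kg body weight. No gavage is described for the DIO mice, so the juice and the gavage cannot be told apart. The labels give every mouse an age of 16 weeks, which leaves out the last 40 days. No lean mice were analysed here. The comparison asks how the juice alters liver gene expression in obese mice.

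FGF ligands bind receptor tyrosine kinases at the cell surface and signal through adaptor proteins to the ERK kinase cascade. FGF1 is a heparan sulfate-bound ligand that can activate all 4 receptors. FGF21 is a hormone released by the liver, known for its rise in fasting and in cellular stress, and it needs beta-klotho beside an FGF receptor. Beta-klotho also pairs with FGFR4 in hepatocytes, where the gut hormone FGF15 (FGF19 in humans) lowers bile acid synthesis.

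In the GRCm38.p6 assembly Fgf21 lies on chromosome 7 at 45613890 to 45615490, and Klb on chromosome 5 at 65348411 to 65386957. Fgfr1 lies on chromosome 8 at 25518759 to 25575718, Fgfr2 on chromosome 7 at 130162451 to 130266808, Fgfr3 on chromosome 5 at 33721724 to 33737068, and Fgfr4 on chromosome 13 at 55152818 to 55168759. RefSeq promoter windows of the same build ran from 250 bases before to 50 bases after the annotated start. Fgf1 was left out of the promoter search, and Fgfr1 had no entry. Windows were matched by symbol for the other 5 of the 7 genes: Fgf21, Klb, Fgfr2, Fgfr3 and Fgfr4. Those of the liver hormone, its coreceptor and the receptor that pairs with this coreceptor in hepatocytes are printed 5′ to 3′ on the gene's strand, to show how the starts of these 3 genes differ in motifs and CpG content. Capitals mark any match, on either strand, to 5 motifs. These are the core of the amino acid response element bound by ATF4, which reads TGATGCAAT, the E-box, which reads CACGTG, and the TATA box, searched as TATAAA. The other two are the GC box, searched as GGGCGG, and the nuclear receptor half-site, searched as AGGTCA.
Fgf21, chr7:45615441-45615740, minus strand: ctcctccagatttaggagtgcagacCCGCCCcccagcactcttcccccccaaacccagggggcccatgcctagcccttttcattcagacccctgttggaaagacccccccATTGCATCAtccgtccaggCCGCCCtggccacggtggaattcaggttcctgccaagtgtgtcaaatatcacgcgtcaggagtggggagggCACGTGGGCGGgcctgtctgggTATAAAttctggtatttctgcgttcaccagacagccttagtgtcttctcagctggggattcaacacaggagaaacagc
Klb, chr5:65348161-65348460, plus strand: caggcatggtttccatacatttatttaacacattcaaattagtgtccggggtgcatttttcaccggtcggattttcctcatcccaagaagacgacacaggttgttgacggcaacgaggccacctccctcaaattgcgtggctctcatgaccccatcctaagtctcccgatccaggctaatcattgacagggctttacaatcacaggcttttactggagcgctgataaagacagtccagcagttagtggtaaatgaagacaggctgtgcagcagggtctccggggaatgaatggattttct
Fgfr4, chr13:55152568-55152867, plus strand: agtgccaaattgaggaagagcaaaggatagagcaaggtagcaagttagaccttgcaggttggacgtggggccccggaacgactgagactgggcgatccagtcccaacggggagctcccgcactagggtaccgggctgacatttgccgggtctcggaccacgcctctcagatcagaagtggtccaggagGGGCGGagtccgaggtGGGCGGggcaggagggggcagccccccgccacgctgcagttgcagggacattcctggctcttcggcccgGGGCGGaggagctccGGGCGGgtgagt
The Fgf21 window held the amino acid response element core at -140 from the start, an E-box at -50, a TATA box at -28 and 3 GC boxes, of which the last shares 1 base with the E-box. The amino acid response element core occurred in 63 of all 32851 promoter windows of this length (0.192%), the E-box in 7.15%, the TATA box in 13.6% and the GC box in 35.7%. The nuclear receptor half-site occurred in 16.3% of all windows and in none of the 3 printed. The Fgfr4 window held 4 GC boxes and 20 CpG dinucleotides, against a median of 7 over all windows. The Klb window held 10 CpG dinucleotides and none of the 5 motifs. Of the windows not printed, that of Fgfr2 held 1 E-box and 4 CpG dinucleotides, and the 2 windows of Fgfr3 held 26 and 30 CpG dinucleotides with 4 and 2 GC boxes. A match of letters is a description of the window and shows neither binding nor use.

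The deposited values are log2 expression levels, 1 per gene and liver. After the dimmest 40% of IDs were left out (mean log2 under 2.74), 20055 IDs entered the fit with limma, and all 7 FGF genes were among them. In limma's test, with Benjamini-Hochberg adjustment over all of them, 0 of 20055 IDs (0%) reached the threshold of 0.05, so 0 of the 7 FGF genes did, and the smallest adjusted p was 0.571. Without adjustment 1285 IDs, or 6.41%, were under 0.05, and 1 of the 7 FGF genes, Fgf1, was among them. The FGF genes were chosen with results of these livers already known, so their differences are given as descriptions and nothing is read from their own p-values. DIO replicate 3 stood apart: its mean correlation with the other 6 arrays across the tested IDs was 0.924, against 0.964 to 0.969 for the others. Because the table carries IDs without symbols, the tissue could not be checked against hepatocyte markers or those of other liver cells, and the other FGF ligands, adaptors, feedback genes, Fgf21 regulators and bile acid genes listed for comparison could not be located in it.

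Fgf1 (chromosome 18, 38838672 to 38929470) was the gene of the set with the largest difference, and it was higher with the juice. In DIO replicates 1 to 3 its log2 values were 6.41, 6.08 and 6.12. In BMJ + DIO replicates 1 to 4 they were 6.88, 6.895, 7.45 and 7.25. Every treated liver was above every DIO liver, with a gap of 0.47 log2 units between the lowest treated and the highest DIO value. BMJ + DIO replicates 3 and 4 stood above replicates 1 and 2. The group means were 6.20 ± 0.18 (SD, n = 3) and 7.12 ± 0.28 (SD, n = 4), so the log2 difference was 0.92 (standard error 0.17, 95% interval 0.50 to 1.33). On the linear scale that is 1.89-fold (1.41 to 2.52). In bulk liver, a change in the number of cells that express a gene and a change in RNA per cell cannot be told apart.

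Groups without any overlap were found for 1 of the 7 FGF genes, Fgf1, and for 3.52% of all tested IDs (1.84% with the treated livers higher). An exact value shared by both groups counts as overlap, which keeps this share low beside Fgf1, a gene without repeats. From 705 on the deposited values, the number of IDs without overlap rose to 1876 after median centring and 2076 after cyclic loess. By the size of its difference in either direction Fgf1 ranked 257 among the 20055 tested IDs. The spread of Fgf1 within the DIO group was larger than that of 40.2% of the tested IDs, and within BMJ + DIO larger than that of 83.8%. Fgf1 held 7 distinct values over the 7 livers, as did 41.0% of tested IDs.

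**Figure D1:**
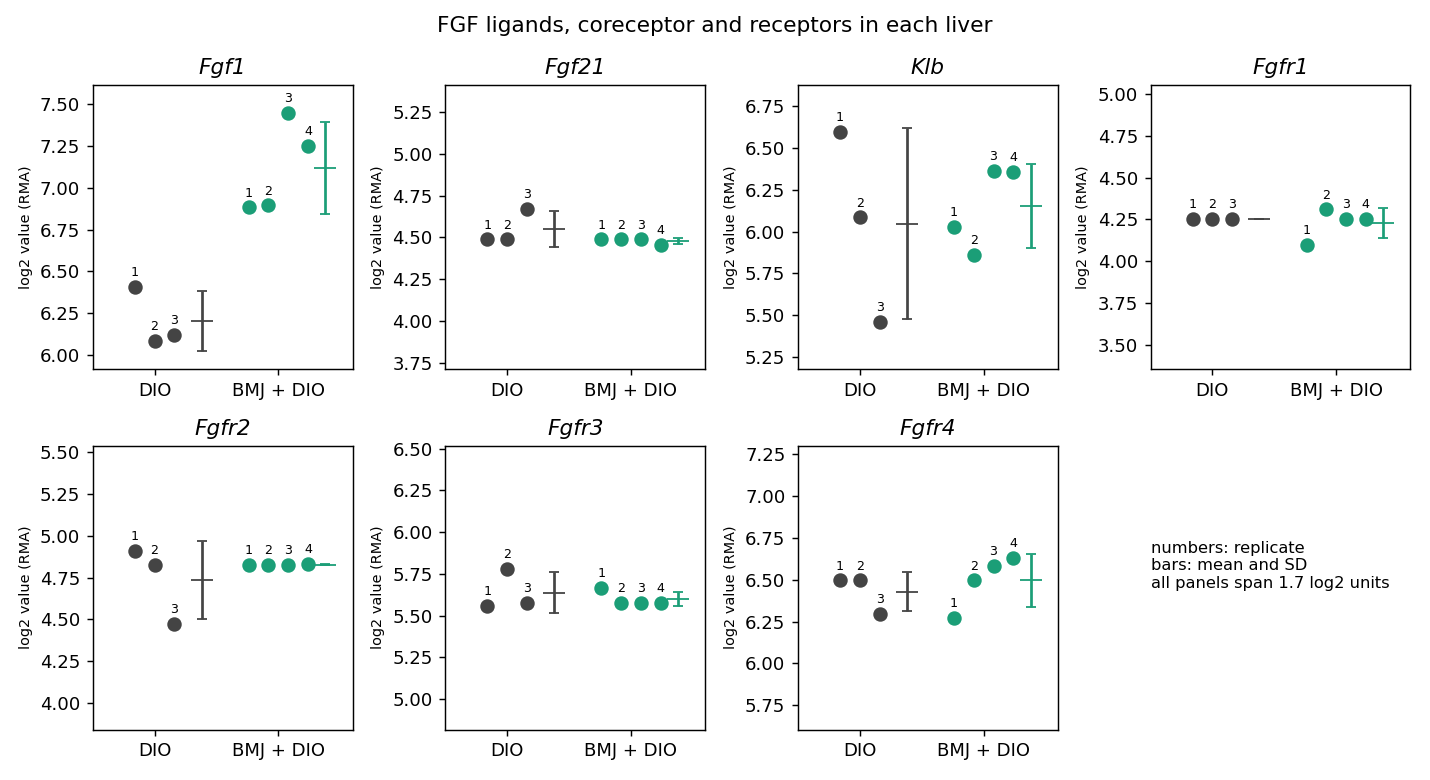
Log2 value (vertical axis) of each FGF gene in each liver, DIO in grey and BMJ + DIO in green, with replicate numbers above the points and bars for the mean and SD of each group; all panels span the same log2 height. For Fgf1 the 4 treated livers lie between 6.88 and 7.45, above the 3 DIO livers at 6.08 to 6.41, while in the other 6 panels the groups overlap or share values.

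Fgf21, the liver's own FGF hormone, read nearly the same in both groups. Its log2 value was exactly 4.48762 in 5 of the 7 livers: DIO replicates 1 and 2 and BMJ + DIO replicates 1 to 3. DIO replicate 3 was higher at 4.67 and BMJ + DIO replicate 4 lower at 4.45. The means were 4.55 ± 0.11 (SD, n = 3) and 4.48 ± 0.02 (SD, n = 4), so the log2 difference was -0.07 (standard error 0.06, 95% interval -0.21 to 0.07). The group difference was thus smaller than the spread among DIO livers, most of which came from replicate 3, and without that liver it was -0.01. The interval reaches from 0.87-fold to 1.05-fold. With 5 livers at exactly the same value, its width rests mostly on DIO replicate 3 and BMJ + DIO replicate 4. It is not read as excluding a change.

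Klb, the coreceptor that FGF21 and FGF15 need, had the widest spread of the set within a group, among the DIO mice. DIO replicates 1, 2 and 3 had log2 values of 6.60, 6.09 and 5.46. BMJ + DIO replicates 1 to 4 had 6.03, 5.86, 6.37 and 6.36. The treated livers all lay inside the DIO range, so the groups overlapped fully. The means were 6.05 ± 0.57 (SD, n = 3) and 6.15 ± 0.25 (SD, n = 4), and the log2 difference of 0.11 (standard error 0.29, 95% interval -0.59 to 0.81) was well inside that spread. The interval runs from 0.66-fold to 1.75-fold, so these arrays leave a sizeable change of Klb in either direction undetectable. Its spread within DIO exceeded that of 89.1% of the tested IDs, and within BMJ + DIO that of 81.2%. Without DIO replicate 3 the difference turned to -0.19, and without DIO replicate 1 it was 0.38.

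The order of the DIO livers in Klb was also that of a shift shared by many IDs. Among the 2162 tested IDs with a mean log2 value from 6 to 7.5, the range that holds Fgf1, Klb and Fgfr4, values in DIO replicate 1 averaged 0.12 from the 7-array median, those in DIO replicate 2 averaged -0.14 and those in DIO replicate 3 averaged -0.55. In the treated livers this average lay between -0.05 and 0.11. Klb deviated by 0.51, 0.00 and -0.63 in the same DIO livers. Fgf1 deviated there by -0.47, -0.80 and -0.76, all negative because its median is the lowest treated value. After cyclic loess, which evens out differences that follow brightness, Klb differed by -0.08 and Fgf1 by 0.70 on the log2 scale. The Fgf1 deviations in DIO replicates 1 to 3 were then -0.60, -0.69 and -0.24. The part of the shared shift in either result was not tested beyond that.

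**Figure D2:**
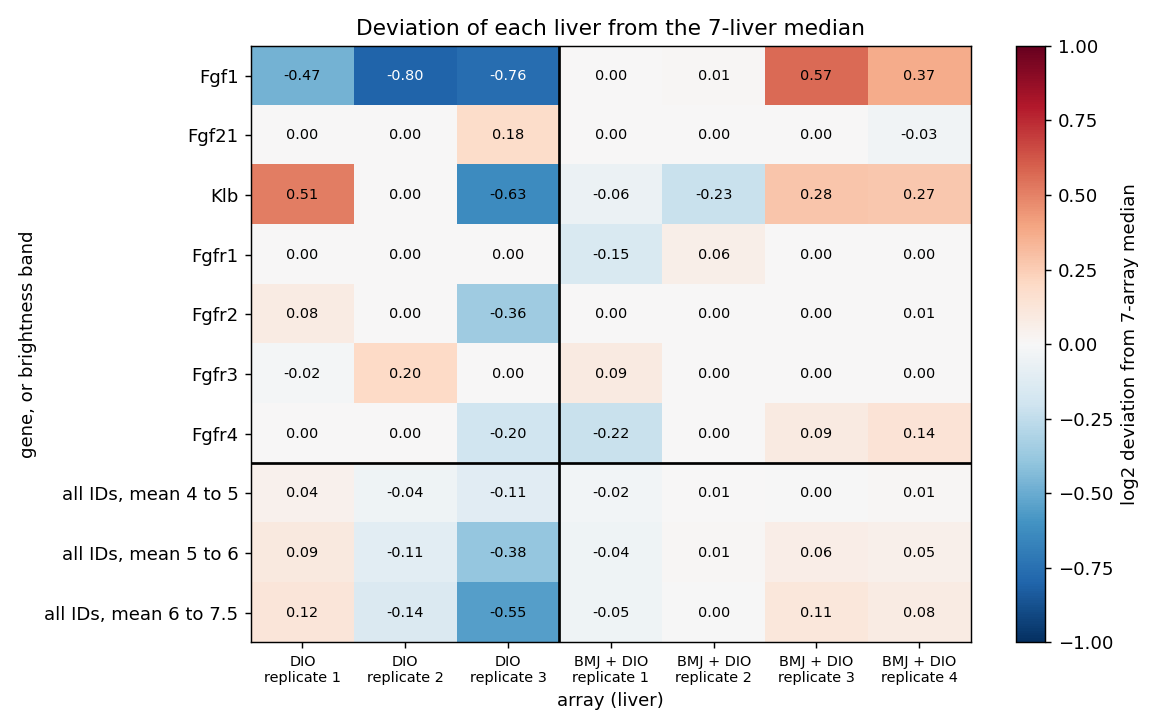
Log2 deviation of each liver (columns) from the median of the 7 livers for the 7 FGF genes, and below the line the mean deviation of all tested IDs in 3 ranges of mean log2 value; red is above and blue below the median. Fgf1 is blue in the 3 DIO livers, at -0.47 to -0.80, since its median is the lowest treated value. The brightest range is lowest in DIO replicate 3, at -0.55.

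Fgfr4, the main FGF receptor of hepatocytes, overlapped between the groups. DIO replicates 1 and 2 both read 6.49619 and replicate 3 read 6.29. BMJ + DIO replicates 1 to 4 read 6.27, 6.49619, 6.585 and 6.63. The lowest and the 2 highest livers were all treated ones, and replicate 2 held the same value as 2 of the DIO livers. The means were 6.43 ± 0.12 (SD, n = 3) and 6.50 ± 0.16 (SD, n = 4). The log2 difference was 0.07 (standard error 0.10, 95% interval -0.19 to 0.32), and it became -0.14 after either cyclic loess or quantile normalization.

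Fgfr1, which with beta-klotho forms the FGF21 receptor of fat tissue, held one value, 4.25029, in all 3 DIO livers and in BMJ + DIO replicates 3 and 4. BMJ + DIO replicate 1 was lower at 4.10 and replicate 2 higher at 4.31. The treated livers therefore lay on both sides of the DIO value. The log2 difference was -0.02 (standard error 0.06, 95% interval -0.16 to 0.12), and without BMJ + DIO replicate 1 it was 0.02.

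Fgfr2, a receptor widely present in epithelia, read 4.91, 4.83 and 4.47 in DIO replicates 1 to 3. In BMJ + DIO it read 4.82675 in replicates 1 to 3, the value also held by DIO replicate 2, and 4.83342 in replicate 4. DIO livers lay above and below the treated ones, which were almost identical to each other. The log2 difference was 0.09 (standard error 0.11, 95% interval -0.17 to 0.35), and it was -0.04 without DIO replicate 3, the lowest liver.

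Fgfr3, a receptor best known as a brake on bone growth, read 5.56, 5.78 and 5.57874 in DIO replicates 1 to 3, and 5.66 in BMJ + DIO replicate 1. BMJ + DIO replicates 2 to 4 held the same value as DIO replicate 3. All treated livers lay within the DIO range. The log2 difference was -0.04 (standard error 0.07, 95% interval -0.20 to 0.12), and without DIO replicate 2, the highest liver, it was 0.03. It was -0.20 after quantile normalization and -0.19 after cyclic loess.

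**Figure D3:**
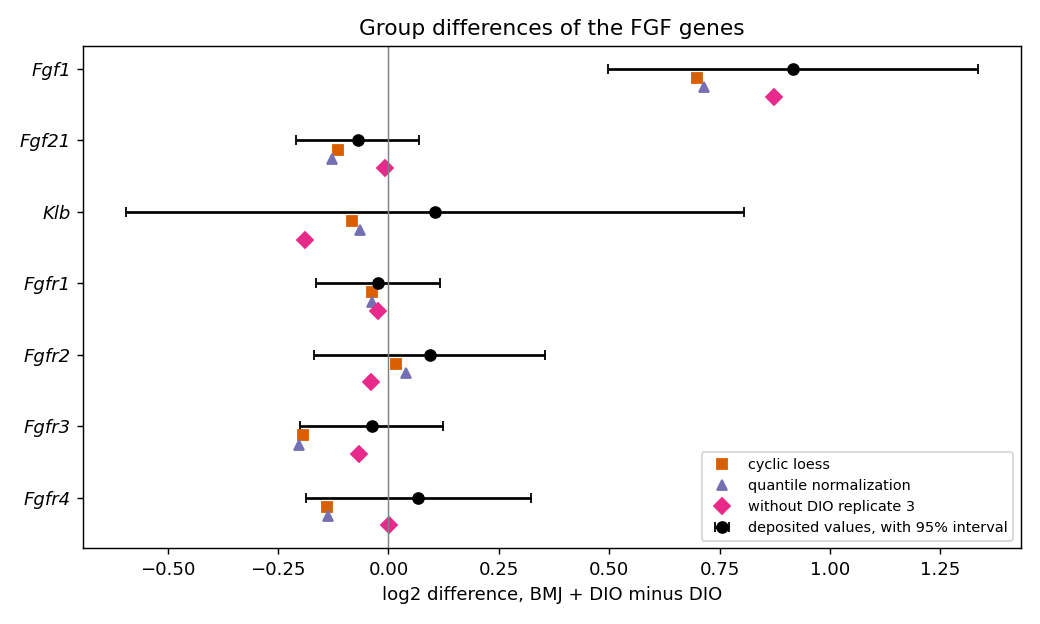
Log2 difference between the group means, BMJ + DIO minus DIO, for each FGF gene (rows): black points with 95% intervals from the deposited values, and coloured marks for cyclic loess, quantile normalization and the fit without DIO replicate 3. The intervals are adjusted neither for the number of IDs tested nor for the choice of these genes with results known, so they are descriptions. That of Fgf1 runs from 0.50 to 1.33, the other 6 span 0, and the coloured marks of Klb fall below 0.

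As a family, 4 of the 7 genes had a higher mean in BMJ + DIO (Fgf1, Klb, Fgfr2 and Fgfr4) and 3 a lower one (Fgf21, Fgfr1 and Fgfr3), beside 56.3% of all tested IDs with a higher mean. The median difference was 0.07 over the 7 genes and 0.02 over all tested IDs. The mean difference was 0.15, and 0.02 over the 6 genes other than Fgf1. Per liver, the mean of the 7 genes about their own averages was 0.04, -0.06 and -0.23 in DIO replicates 1 to 3, and it was -0.03, 0.00, 0.16 and 0.13 in BMJ + DIO replicates 1 to 4. DIO replicate 3 was the lowest of these and the groups overlapped, since DIO replicate 1 was above BMJ + DIO replicates 1 and 2.

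Exact repeats marked 5 of the 7 genes, Fgf21 and the 4 receptors: the most frequent value recurred in 5 livers for Fgf21 and Fgfr1, in 4 for Fgfr2 and Fgfr3 and in 3 for Fgfr4. Such repeats were common in the table: 11833 of the 20055 tested IDs (59.0%) held the same value in at least 2 livers. Repeats within a group lower its spread, so narrow intervals of these 5 genes are not read as excluding a change. The sources used here do not give the probes behind each ID, so splice forms of the receptors could not be told apart.

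The coreceptor, the receptors and Fgf21 were also set against each other over the 7 livers, in 15 pairs. The highest positive correlation was between Klb and Fgfr2 (Pearson r = 0.84, Spearman rho = 0.81, n = 7). Its exact permutation p was 0.0095, and 0.143 after Benjamini-Hochberg adjustment over the 15 pairs. Without the 2 livers farthest from the Klb median r was 0.56, and after cyclic loess over the 7 livers it was 0.47. Klb and Fgfr4, which act together in hepatocytes, gave r = 0.66 on the deposited values and -0.35 after cyclic loess (exact permutation p = 0.108 and 0.441, adjusted 0.325 and 0.509). Fgfr2 and Fgf21 ran opposite to each other (r = -0.96, exact permutation p = 0.048, adjusted 0.268), with DIO replicate 3 the lowest liver in Fgfr2 and the highest in Fgf21. On the deposited values 2 of the 15 pairs had an unadjusted exact permutation p under 0.05 and 0 passed the adjusted threshold. Exact repeats limit how small this p can get in pairs with Fgf21, Fgfr1, Fgfr2 or Fgfr3. The count of 0 was therefore in large part fixed in advance. After cyclic loess 1 pair passed by Pearson's r (Fgf21 with Fgfr3, r = 0.83, exact permutation test, adjusted p = 0.021) and 0 by Spearman's rho. On the deposited values that pair had the opposite sign (r = -0.16, exact permutation p = 0.881). In both genes, livers with the same deposited value differ after cyclic loess only by the correction of each array. The 5.57874 of Fgfr3 became 5.92 in DIO replicate 3 and 5.46 in BMJ + DIO replicate 3. Nothing is therefore read from this pair about the 2 genes. The ID whose pattern over the 7 livers was most like that of Fgf1 had r = 0.99, and 148 IDs exceeded 0.9. These IDs could not be named.

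**Figure D4:**
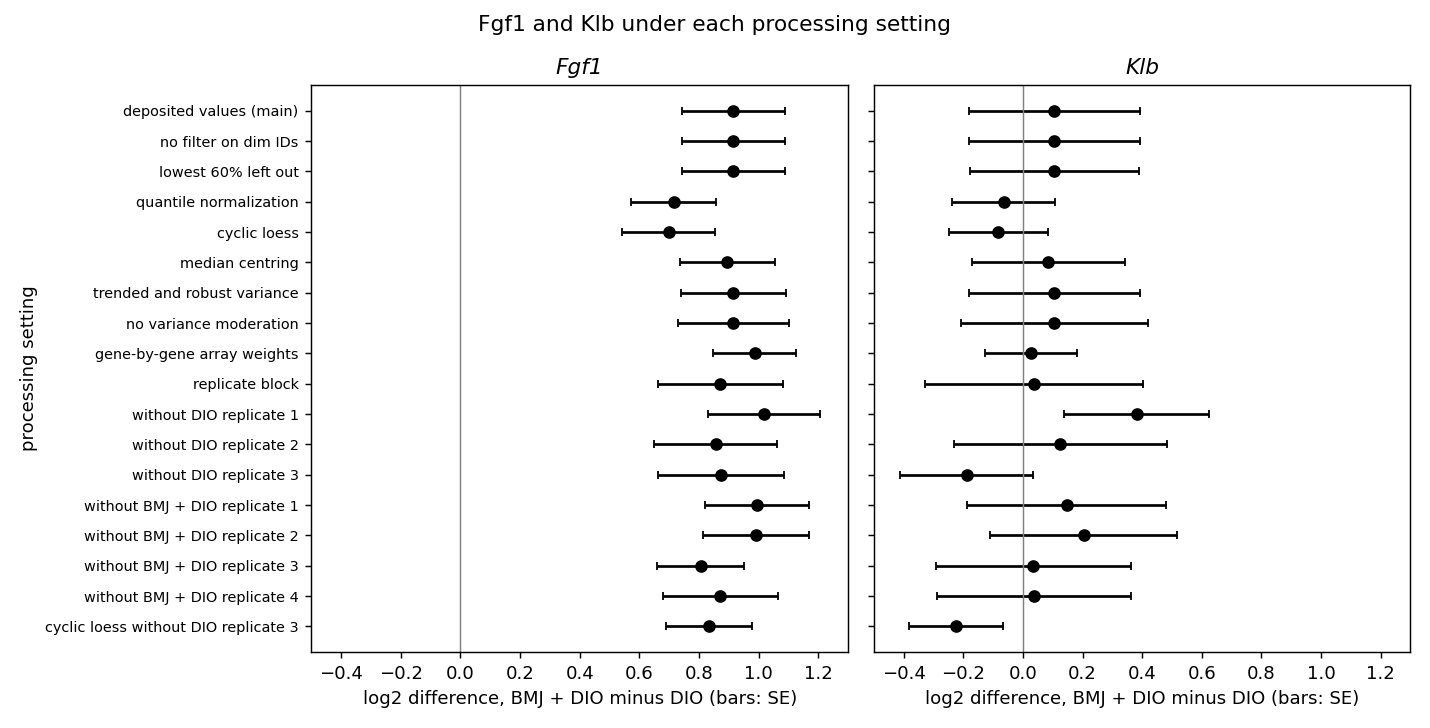
Log2 difference, BMJ + DIO minus DIO, of Fgf1 (left) and Klb (right) on the same horizontal scale under each processing setting (rows), with bars of 1 standard error. Fgf1 stays between 0.70 and 1.02, while Klb runs from -0.22 to 0.38.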

How the data were processed

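The deposited log2 values, 1 per gene and liver, were produced by the authors with RMA in Affymetrix Power Tools (background correction, normalization across arrays and summary per gene) and GRCm38 (mm10), per the submitters' processing notes. The deposited values still differed in level between arrays. Tested IDs with a mean log2 value from 6 to 7.5 averaged -0.55 from the 7-array median in DIO replicate 3. Not given in the sources used here: versions, array type, grouping of probes, filters. Scanner data were not used here, so neither batches nor signal over background were examined. Groups and replicate numbers came from the titles, where samples are named biological replicates. The members and lists were chosen with earlier results of these data known, and the gene symbols of the 7 IDs were supplied with that choice, since the RefSeq table (GRCm38.p6) lists 0 Ensembl IDs. All 7 were named by that rule. The comparison lists and cell type markers, written in symbols, had no match and were not tested.

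Differences, BMJ + DIO minus DIO, come from lmFit and eBayes (R 4.3.3, limma 3.58.1) with group as the sole term, after leaving out the lowest 40% of IDs by mean. The fit had 5 residual and 1.05 prior degrees of freedom. Tests were two-sided and adjusted by Benjamini-Hochberg over 20055 IDs. The fit was also run on simulated data with independent noise. Those data had neither exact repeats nor array-wide shifts, so that run does not cover either feature. Correlations used exact permutation (Python 3.11.15). The 17 alternatives were no filter or a 60% filter, quantile normalization, cyclic loess, median centring, a trended and robust variance, no moderation, gene-by-gene array weights, the replicate block, each array left out, and cyclic loess without DIO replicate 3. The last was chosen after seeing the data. The number of arrays limits the precision.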

Additional observations from a re-analysis of the deposited data

Results flagged for a closer look

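In 3 of the 7 FGF genes, 1 BMJ + DIO liver lay apart from the other treated livers by Dixon's criterion for groups of 4, which chance meets in about 1 in 20 groups. Fgf21 was 4.45283 in replicate 4 against 4.48762 in the other treated livers. Fgfr2 was 4.83342 in replicate 4 against 4.82675, and Fgfr3 was 5.66499 in replicate 1 against 5.57874. The same criterion was met in the treated group by 4944 of the 20055 tested IDs (24.7%). In each of the 3 genes the other 3 livers held exactly the same value, so any departure, however small, meets the criterion. The DIO group of 3 is too small for it.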

How the results depend on the processing

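Of the 17 alternatives, all kept Fgf1 higher in BMJ + DIO, with log2 differences from 0.70 (cyclic loess) to 1.02 (without DIO replicate 1) and 0.81 to 1.02 without any 1 array. With groups that do not overlap, leaving out an array, weighting arrays or the replicate block could not have turned it. The filters, the trended and robust variance and no moderation cannot change the difference of any gene. Only the normalizations and median centring could have turned Fgf1. Fgf21 kept its sign in all 17 (-0.13 to -0.01). No DIO liver was below any treated liver in Fgf21, so again only the normalizations and median centring could have turned it. Klb turned to -0.065 with quantile normalization, -0.083 with cyclic loess, -0.22 with cyclic loess without DIO replicate 3, and ran from -0.19 to 0.38 without 1 array. Fgfr4 turned to -0.14 with quantile normalization and with cyclic loess, and to -0.037 with cyclic loess without DIO replicate 3. Fgfr2 turned to -0.050 in that fit and ran from -0.039 to 0.18 without 1 array. Fgfr1 ran from -0.050 to 0.020 and Fgfr3 from -0.079 to 0.033 without 1 array; Fgfr3 was -0.20 with quantile normalization and -0.19 with cyclic loess. The cause was not tested. Gene-by-gene array weights gave DIO replicate 2 a weight of 5.51 against 0.26 and 0.11 for the other DIO arrays. With them 3705 of the 20055 tested IDs passed the adjusted p of limma's test. Among these were Fgf1 (0.99, adjusted p = 0.028) and Fgfr3 (-0.17, adjusted p = 0.039). With so many IDs called, nothing is read from these p-values about the FGF genes. Over the other alternatives the adjusted p of Fgf1 was 0.089 to 0.858. Cyclic loess called 1 ID, and every other alternative 0. The count of genes higher among the 7 became 2 with quantile normalization or cyclic loess, 1 with cyclic loess without DIO replicate 3, and 2 to 5 without 1 array. Their mean difference, 0.15, became 0.026 with quantile normalization, 0.021 with cyclic loess and 0.08 to 0.21 without 1 array. The number of IDs under 0.05 without adjustment, 1285, became 1942 with no filter, 701 without moderation, 7119 with array weights, 449 with the replicate block and 550 to 5823 without 1 array. The 705 IDs without overlap became 1182 with no filter, 2171 with quantile normalization, 2076 with cyclic loess and 1876 with median centring. They became 3442 with cyclic loess without DIO replicate 3 and 894 to 7939 without 1 array. Fewer arrays make separation easier, but 7939 came without DIO replicate 1, against 1205 and 1341 without DIO replicates 2 and 3. That fit also gave the 5823 IDs under 0.05 without adjustment. The part of array-wide shifts in these counts was not tested. The replicate block left Fgf1 at 0.87 and 0 IDs past the adjusted p. Deviations from the group means over the tested IDs gave r = -0.36, -0.09 and -0.30 between same-numbered livers. These r values include array-wide shifts, such as that of DIO replicate 3, so they cannot decide whether equal numbers were paired. Nothing ties equal numbers to a shared cage or day.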
